A study of Mus musculus with 12 samples.

Results

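The serine synthesis and folate one-carbon enzymes were followed in cultured mouse natural killer (NK) cells whose pyruvate kinase M2 (PKM2) had been deleted or pharmacologically activated. The group was defined by gene name and holds 8 of the 11706 genes for which expression values were read: Phgdh, Psat1 and Psph of serine synthesis, and Shmt1, Shmt2, Mthfd1, Mthfd1l and Mthfd2 of folate one-carbon metabolism. All 8 passed the filter on low values, a mean of at least 1 RPKM (a read count corrected for gene length and library size) over 11 libraries, which left 11142 genes. Spleen cells of C57BL6 mice were kept in 10 ng/mL of IL-15 for 6 days before NK cells were isolated on magnetic columns, and the labels give an 18 h exposure to IL-2 (330 U) with IL-12 (10 ng/mL) for every sample. The PKM2 WT group carried 1 copy of Cre driven by Ncr1, the gene of an NK cell receptor (NCR1Cre het), and the PKM2 KO group carried the same Cre with both Pkm2 alleles floxed (NCR1Cre het PKM2fl/fl), so that the WT group was a Cre control. In the drug experiment, wild-type NK cells received IL-2/12 with vehicle or with TEPP-46, a small molecule that activates PKM2. The dose is written as 50 µM in the series description and as 50 mM in the sample labels, and the vehicle as DMSO at 0.1% in the labels and as PBS in the description. WT, vehicle and TEPP-46 had 3 libraries each and KO had 2 libraries, since the third KO sample was not analysed here. The labels call the replicates biological, and give neither the age nor the sex of the mice, nor whether a replicate pooled animals.

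Serine can be made from the glycolytic intermediate phosphoglycerate, which is oxidised by Phgdh, transaminated by Psat1 and dephosphorylated by Psph. Shmt1 in the cytosol and Shmt2 in mitochondria then split serine into glycine and a carbon unit bound to folate. Mitochondrial Mthfd2 and Mthfd1l oxidise that unit and release it as formate, and cytosolic Mthfd1 takes formate up again for purine and thymidylate synthesis. Pyruvate kinase acts downstream of phosphoglycerate in glycolysis, so its activity bears on how much phosphoglycerate is at hand, and activated lymphocytes are known to raise several of these enzymes as they start to divide.

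Some values went against the labels of the genotype libraries. Pkm, the gene that encodes PKM2, was at 206 ± 12.7 RPKM in WT (SD, n = 3) and 77.5 ± 1.27 in KO (SD, n = 2), but at 1085 ± 107 in vehicle and 1099 ± 51.8 in TEPP-46 (SD, n = 3 each). Ifng, which IL-12 induces in NK cells, was at 23.4 ± 0.732 RPKM in WT and 21.5 ± 3.87 in KO, against 1044 ± 35.6 in vehicle and 867 ± 61.3 in TEPP-46. The IL-2 receptor gene Il2ra was at 3.73 ± 0.172 and 4.005 ± 0.191 RPKM in WT and KO, against 33.6 ± 3.22 and 32.2 ± 1.88 in the drug experiment. All 4 groups carry the same IL-2/12 label. The authors' deposited table gives KO over WT ratios for a comparison marked 2/12 and for one marked US, which the sources do not spell out, and 7 of its genes had RPKM here. The KO over WT ratio of mean RPKM was 0.377 for Pkm, 0.360 for Dixdc1 and 0.847 for Slc37a4. In the authors' deposited table these were 0.539, 0.168 and 0.411 for 2/12, and 0.396, 0.383 and 0.845 for US, so that these 3 genes were nearer to US. The other 4 genes were nearer to 2/12. For them the ratio of mean RPKM was 0.124 for Cd3g, 1.70 for Jaml, 0.186 for Nlrx1 and 0.695 for Rnf26. The authors' deposited table has 0.121, 1.67, 0.186 and 0.660 for 2/12, and 0.0896, 2.06, 0.195 and 0.621 for US. Whether the libraries labelled WT and KO came from cells stimulated with IL-2/12 is therefore uncertain, which bears on every comparison with them below. Samples were kept in the groups of their labels, and the authors' tables list none of the 8 enzymes. Ddx3y, a gene of the Y chromosome, was listed at 0 in 2 of the 3 WT libraries and in 1 of the 2 KO libraries, and was between 33.4 and 39.0 RPKM in all others, so that the genotype groups mixed both sexes and the drug experiment held male cells. All 7 NK cell markers were measured, with summed levels of 4113 to 4475 RPKM in the genotype libraries and 15384 to 17442 in the drug experiment. That sum follows Gzmb, a granule protease, at 2753 ± 131 RPKM in WT and 14777 ± 789 in vehicle, whereas the receptor genes went the other way, with Klrb1c at 386 ± 18.5 and 42.5 ± 3.31 and Ncr1 at 238 ± 2.90 and 97.8 ± 9.28 (SD, n = 3 each). Of the T cell markers, 3 of 7 were measured, with sums of 91.3 to 122 RPKM in WT, 21.9 to 35.9 in KO and 18.6 to 20.3 in the drug experiment. Of the basophil, mast cell and granulocyte markers, 4 of 7 were measured and summed to 80.0 to 188 RPKM in WT, 44.0 to 71.1 in KO and 6.62 to 18.5 in the drug experiment. Of the macrophage and dendritic cell markers, 3 of 6 summed to 261 to 298 RPKM in the genotype libraries and 21.1 to 25.4 in the drug experiment. In the genotype libraries that sum was mostly Itgax, at 265 ± 11.5 RPKM in WT and 10.1 ± 0.329 in vehicle (SD, n = 3 each). Cd68 was at 17.0 ± 1.09 in WT and 10.2 ± 1.00 in vehicle, and the Zbtb46 groups overlapped. Adgre1, Csf1r and Flt3 were not analysed here. None of the 5 B cell or 4 erythroid markers was analysed here. The part of other cells in the results below was not tested, and in bulk RNA fewer cells of a type and less RNA per cell cannot be told apart.

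The promoters were read for the CCAAT box, the letters bound by NF-Y, because that motif was the one of 3 searched that recurred among these genes. RefSeq windows of GRCm38.p6, from 250 bases before to 50 bases after each gene start, were found for all 8 genes, with a further start for Psat1. On either strand CCAAT occurred in 6 of the 9 windows, 1 in each of 6 genes, against 37.4% of the 32851 windows in the table. The stretches below end at the gene start, or just before an annotated untranslated region, and are shown for 4 of those 6 genes because the matches lie there and outside any annotated untranslated region. Capitals mark CCAAT or its reverse complement ATTGG, written 5′ to 3′ along the gene.
Psat1: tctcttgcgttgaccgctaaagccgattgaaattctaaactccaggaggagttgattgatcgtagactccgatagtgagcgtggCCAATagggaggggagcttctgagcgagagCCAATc
Mthfd2: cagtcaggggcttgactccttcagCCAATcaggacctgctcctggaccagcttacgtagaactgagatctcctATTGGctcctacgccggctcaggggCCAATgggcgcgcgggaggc
Shmt1: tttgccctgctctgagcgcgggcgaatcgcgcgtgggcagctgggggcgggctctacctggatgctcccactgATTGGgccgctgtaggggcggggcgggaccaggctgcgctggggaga
Mthfd1: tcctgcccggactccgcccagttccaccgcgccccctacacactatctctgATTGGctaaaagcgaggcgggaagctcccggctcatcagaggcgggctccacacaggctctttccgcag
The Psat1 stretch lies at chr19:15925060-15925179 and the Mthfd2 stretch at chr6:83317607-83317724, both on the minus strand. The Shmt1 stretch lies at chr11:60811266-60811385 on the minus strand, and the Mthfd1 stretch at chr12:76255112-76255231 on the plus strand, within an exon of the divergent noncoding gene Gm47525. In these 4 genes the matches began between 96 and 6 bases before the start, and Psat1 had a further match 24 bases after it. Mthfd2 and this Psat1 window held 3 matches each, where 3.37% of all windows held at least 3, while Phgdh and Psph held 2 each and Shmt1 and Mthfd1 held 1 each. Shmt2 and Mthfd1l, both mitochondrial, held none, nor did the other Psat1 window. Neither TGATGNAA, the core of the element bound by ATF4, found in 3.97% of windows, nor CACGTG, the E-box bound by MYC, found in 7.15%, occurred in any of the 8 genes. These are letter matches on both strands that do not overlap one another, and binding was not measured.

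TEPP-46 was compared with vehicle to ask what PKM2 activation does to these transcripts in stimulated NK cells. All 8 enzymes had a lower mean with TEPP-46, by 0.18 to 0.35 on the log2(RPKM + 1) scale, with a median of -0.24 against -0.02 over all genes tested. Of all genes tested, 56.6% had a difference below 0. None of the 8 passed limma's test at an adjusted p of 0.05, and neither did any other gene, so that 0% of 11142 genes were called. At an unadjusted p under 0.05 there were 4 of the 8, Psat1, Mthfd2, Phgdh and Psph, and 1051 of all genes. In a limma fit with same-numbered libraries as blocks these were 8 of the 8 and 2597 of 11142. None of the 8 passed the adjusted threshold in that fit either, and the labels do not say what a replicate number shares. Every library was lower with TEPP-46 than in vehicle for Phgdh, Psat1, Psph and Mthfd2, which is 4 of 8, where 7.71% of all genes tested showed that arrangement. These 4 are the 3 enzymes of serine synthesis and the mitochondrial Mthfd2. Shmt2 and Shmt1, outside these 4, had the largest differences in means. All 8 enzymes were lower in each TEPP-46 library than in the vehicle library of the same replicate number. The share of all genes with that arrangement was not computed, so this count has nothing to be set beside. Those 4 enzymes also had the smallest standard errors and are the ones at an unadjusted p under 0.05. They are thus set off by overlap and spread, and not by the direction or size of the difference.

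The 3 serine synthesis genes all had groups apart. Phgdh, the committing enzyme of serine synthesis, measured 122, 129 and 139 RPKM in the vehicle libraries and 99.7, 98.8 and 120 with TEPP-46. The highest treated library was 2.04 RPKM below the lowest vehicle library. The ratio of mean RPKM was 0.817 and the difference -0.29 ± 0.09 (SE) on the log2 scale (limma adjusted p = 0.441). Psat1, the aminotransferase, measured 83.4, 80.9 and 88.5 RPKM in vehicle and 68.1, 70.5 and 73.8 with TEPP-46. The groups were well apart for Psat1 and its libraries varied least, with a difference of -0.25 ± 0.05 (SE) and the smallest limma adjusted p of the 8 enzymes, 0.329. Psph, the phosphatase that yields serine, measured 19.6, 17.1 and 18.6 RPKM in vehicle and 16.2, 14.6 and 16.8 with TEPP-46. Its groups did not overlap but came within 0.26 RPKM of each other, and the difference was -0.20 ± 0.08 (SE, limma adjusted p = 0.505). The two-sided exact permutation test gave p = 0.1 for each of the 3 genes, which is the smallest value that 3 against 3 libraries allow.

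Among the mitochondrial folate enzymes, Mthfd2, the dehydrogenase that oxidises the folate-bound unit, measured 56.5, 54.6 and 61.5 RPKM in vehicle and 47.0, 47.6 and 52.5 with TEPP-46. All treated libraries lay below all vehicle libraries, with a difference of -0.23 ± 0.07 (SE, limma adjusted p = 0.425) and p = 0.1 in the exact permutation test. Shmt2, the mitochondrial hydroxymethyltransferase, measured 92.7, 87.1 and 104 RPKM in vehicle and 75.4, 60.1 and 89.8 with TEPP-46. Its difference in means was the largest of the 8 in the reported fit, -0.35 ± 0.16 (SE), but its groups overlapped, since the highest treated library exceeded the lowest vehicle library (limma adjusted p = 0.553). Mthfd1l, the synthetase that releases formate, measured 49.2, 45.6 and 51.0 RPKM in vehicle and 44.8, 36.5 and 47.4 with TEPP-46. Its groups overlapped as well, and its difference was the smallest, -0.18 ± 0.11 (SE, limma adjusted p = 0.640).

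The cytosolic enzymes overlapped between the groups. Shmt1 measured 29.8, 23.6 and 32.8 RPKM in vehicle and 24.5, 17.6 and 27.4 with TEPP-46, a difference of -0.31 ± 0.19 (SE, limma adjusted p = 0.662). Mthfd1, which makes formyl-folate from formate in the cytosol, measured 53.9, 46.7 and 63.4 RPKM in vehicle and 47.0, 37.1 and 55.4 with TEPP-46, a difference of -0.24 ± 0.18 (SE, limma adjusted p = 0.703). In both genes, and in Shmt2 and Mthfd1l, replicate 2 was the lowest library of the vehicle group and also of the TEPP-46 group. The summed level of the 8 enzymes was 507, 485 and 559 RPKM in vehicle and 423, 383 and 483 with TEPP-46, so that every treated sum lay below every vehicle sum. The nearest came close to a tie, at 484.54 RPKM in vehicle replicate 2 and 483.15 in TEPP-46 replicate 3.

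**Figure D1:**
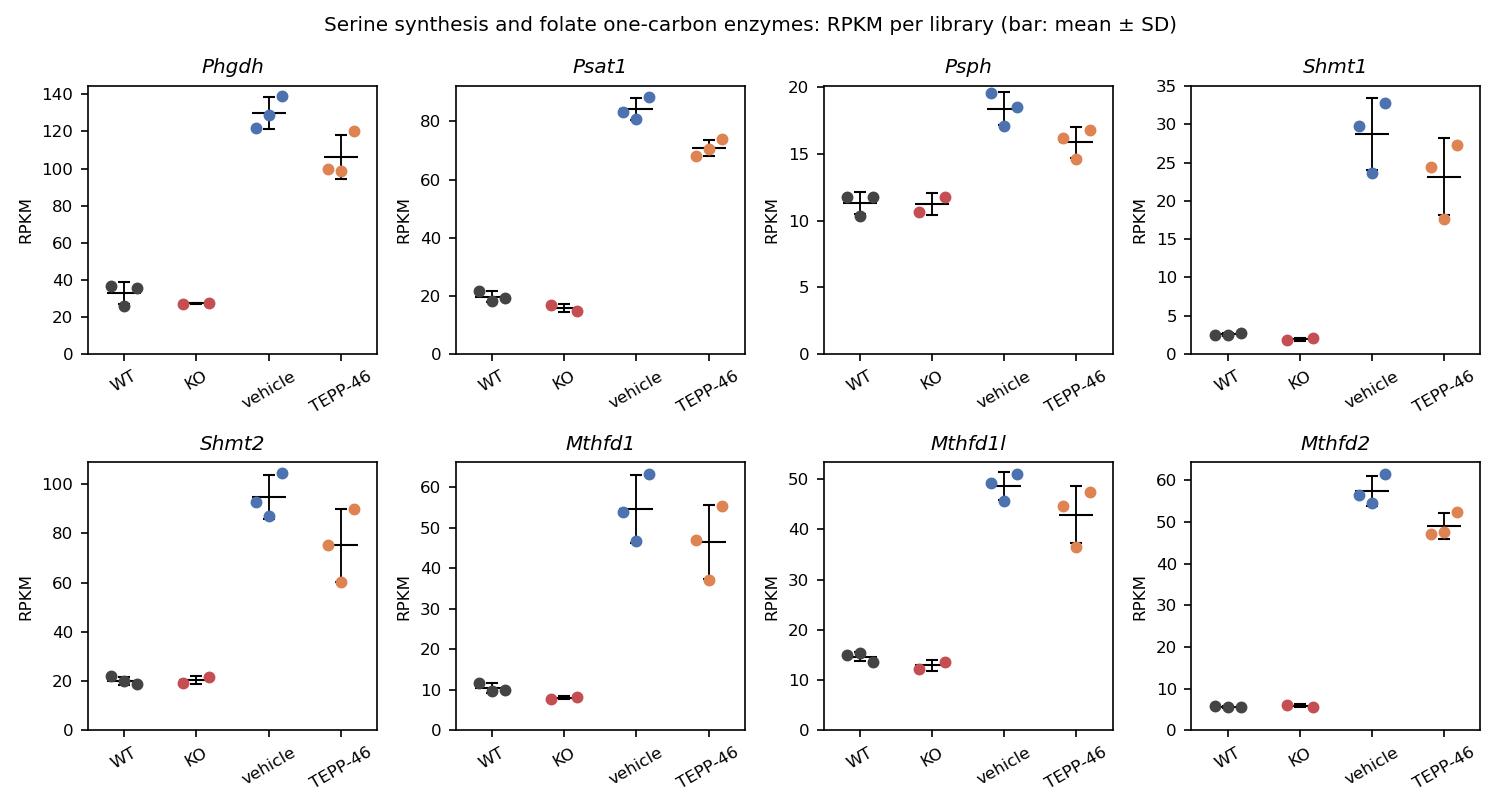
RPKM of the 8 enzymes (vertical axes, linear from 0) in each library of the 4 groups, 2 by genotype and 2 by drug. Points are libraries in order of replicate number and bars are the mean ± SD. For Phgdh, Psat1, Psph and Mthfd2 all 3 TEPP-46 points lie below all 3 vehicle points, and every drug experiment point lies above every genotype point in all 8 panels.

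PKM2 KO was compared with PKM2 WT to ask what loss of the enzyme does. The cytosolic enzymes Shmt1 and Mthfd1, with Psat1 and Mthfd1l, were lower in both KO libraries than in all WT libraries. This arrangement was found in 4 of the 8 enzymes and in 14.5% of all genes tested. The groups of Shmt2, Mthfd2 and Psph overlapped, with estimated differences near 0, which does not show that their levels were equal. In the fit 6 of 8 differences were below 0, where 49.7% of all genes were, with a median of -0.20 against 0.00 over all genes. None of the 8 passed limma's test, where 11 of 11142 genes did, or 0.0987%. At an unadjusted p under 0.05 there were 3 of the 8, Mthfd1, Shmt1 and Psat1, and 885 of all genes.

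Shmt1 measured 2.54, 2.42 and 2.77 RPKM in WT and 1.79 and 2.05 in KO, a ratio of means of 0.745. It was the least abundant of the 8 enzymes in these libraries, and the difference was -0.29 ± 0.10 (SE, limma adjusted p = 0.570). Mthfd1 measured 11.8, 9.71 and 9.93 RPKM in WT and 7.78 and 8.34 in KO, a ratio of 0.768. Both KO libraries were below every WT library, with a difference of -0.34 ± 0.11 (SE, limma adjusted p = 0.564). At a pseudocount of 0.1 the differences were -0.41 for Shmt1 and -0.37 for Mthfd1, so the order of these 2 depends on the pseudocount. Psat1 measured 21.7, 18.1 and 19.3 RPKM in WT and 16.7 and 14.8 in KO, with a difference of -0.30 ± 0.10 (SE, limma adjusted p = 0.573). For these 3 genes the two-sided exact permutation test gave p = 0.1, the smallest that 3 against 2 libraries allow. Mthfd1l measured 15.1, 15.3 and 13.7 RPKM in WT and 12.2 and 13.7 in KO. Its groups were apart by only 0.02 RPKM, and the difference was -0.17 ± 0.08 (SE, limma adjusted p = 0.696).

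The remaining genes overlapped between the genotypes. Phgdh measured 36.6, 26.0 and 35.6 RPKM in WT and 27.2 and 27.5 in KO. WT replicate 2 was below both KO libraries while the other WT libraries were above them, and the difference was -0.24 ± 0.16 (SE, limma adjusted p = 0.797). Psph measured 11.8, 10.4 and 11.8 RPKM in WT and 10.7 and 11.8 in KO, a difference of -0.01 with a 95% interval from -0.24 to 0.22. Shmt2 measured 21.9, 19.9 and 18.8 RPKM in WT and 19.4 and 21.5 in KO, a difference of 0.02 with an interval from -0.21 to 0.25. Mthfd2 measured 5.88, 5.56 and 5.56 RPKM in WT and 6.18 and 5.66 in KO, a difference of 0.05 with an interval from -0.15 to 0.25. The interval for Psph reaches below its TEPP-46 value of -0.20, while those for Shmt2 and Mthfd2 end above their TEPP-46 values of -0.35 and -0.23; the test of these differences is given with the comparison of the effects. The summed level of the 8 enzymes was 127, 107 and 117 RPKM in WT and 102 and 105 in KO.

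Proliferation genes were also lower in the KO libraries. All 10 of them had every KO library below every WT library, where 14.5% of all genes tested did, with a median difference of -0.56. Mki67, the proliferation antigen, was at 57.7 ± 3.65 RPKM in WT and 38.4 ± 0.375 in KO (limma adjusted p = 0.228), and the mitotic kinase Cdk1 at 42.4 ± 6.01 and 24.4 ± 1.05 (limma adjusted p = 0.413). None of the 10 passed the test over all genes. The basophil, mast cell and granulocyte markers were also lower in both KO libraries than in all WT libraries, in 4 of the 4 measured. The share of all genes tested is again 14.5%. The lower T cell sum in KO was that of Cd3g, at 85.0 ± 15.2 RPKM in WT and 10.5 ± 5.78 in KO, while Cd3d overlapped and Cd28 was higher, at 11.2 ± 1.80 and 13.6 ± 1.68 (SD, n = 3 and 2). The part of proliferation or of other cells in the enzyme values was not tested.

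**Figure D2:**
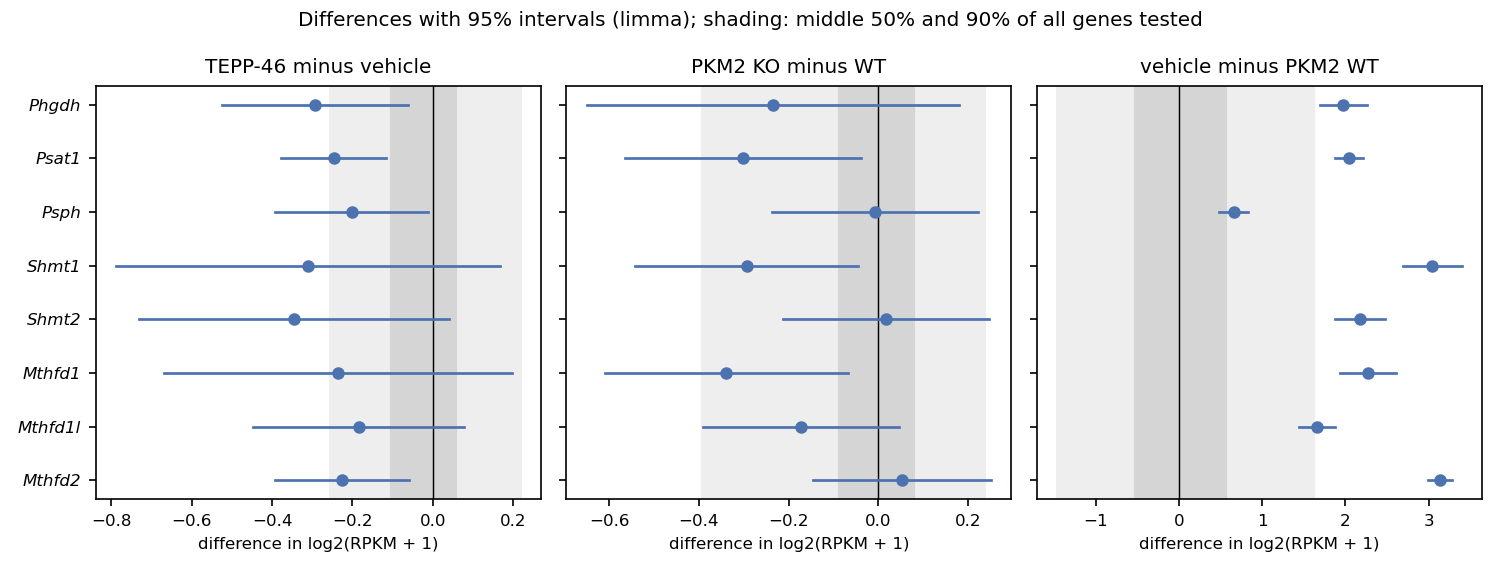
Differences in log2(RPKM + 1) for the 8 enzymes (rows) in TEPP-46 minus vehicle, PKM2 KO minus WT and vehicle minus PKM2 WT. Points are limma estimates, lines their 95% intervals, and the shading spans the middle 50% and 90% of all genes tested; every TEPP-46 estimate lies below 0, while Shmt2, Mthfd2 and Psph lie near 0 in the KO panel.

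The effects of TEPP-46 and of PKM2 KO were compared in 1 model over all 11 libraries. None of the 8 enzymes passed limma's test of the difference between the effects, which called 6 of 11142 genes, or 0.0539%. For Mthfd2 the TEPP-46 effect was lower than the KO effect by a log2 value of -0.28 ± 0.10 (SE, unadjusted p = 0.0169, limma adjusted p = 0.621), the one enzyme with an unadjusted p under 0.05. For Shmt2 the corresponding value was -0.36 ± 0.20 (SE, limma adjusted p = 0.823). The intervals for the other enzymes all held 0, and that for Mthfd1 ran from -0.40 to 0.61. A different effect of deletion and activation on these genes was not detectable with these libraries, and likeness was not shown either.

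Mitochondrial and cytosolic enzymes that act on the same reaction were next compared as a ratio within each library, with differences taken between log2 ratios of (RPKM + 1). The Shmt2 to Shmt1 ratio of RPKM was 8.64, 8.24 and 6.79 in WT and 10.8 and 10.5 in KO. Both KO libraries were above every WT library, by a difference of 0.31 on that scale (two-sided exact permutation p = 0.2) and of 0.42 with a pseudocount of 0.1 (exact permutation p = 0.1). The Mthfd2 to Mthfd1 ratio was 0.497, 0.573 and 0.560 in WT and 0.794 and 0.679 in KO. These groups did not overlap either, with a difference of 0.39 on that scale and an exact permutation p = 0.1, the smallest possible. The Mthfd1l to Mthfd1 ratio was 1.41 ± 0.153 in WT (SD, n = 3) and 1.60 ± 0.0519 in KO (SD, n = 2), and its groups overlapped (exact permutation p = 0.3). With TEPP-46 none of the ratios stood apart from vehicle. Shmt2 to Shmt1 was 3.33 ± 0.311 in vehicle and 3.26 ± 0.166 with TEPP-46 (SD, n = 3 each, exact permutation p = 0.8). Mthfd2 to Mthfd1 was 1.06 ± 0.0999 and 1.08 ± 0.178 (SD, n = 3 each, exact permutation p = 1). Mthfd1l to Mthfd1 was 0.899 ± 0.0872 and 0.931 ± 0.0669 (SD, n = 3 each, exact permutation p = 0.6). Over these 6 tests the smallest Benjamini-Hochberg adjusted value of the permutation tests was 0.6.

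**Figure D3:**
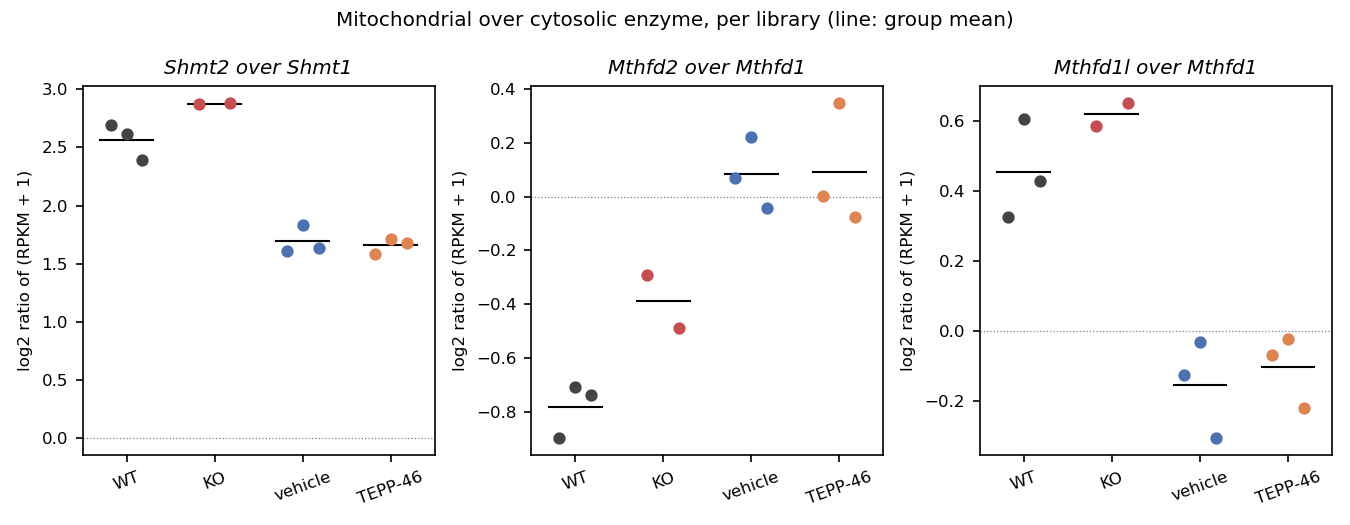
Log2 ratio of (RPKM + 1) of a mitochondrial over a cytosolic enzyme (vertical axes) in each library (points) of the 4 groups, with the group mean as a line. The KO points lie above all WT points for Shmt2 over Shmt1 and Mthfd2 over Mthfd1, and the vehicle and TEPP-46 points overlap in all 3 panels.

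The vehicle libraries were set beside PKM2 WT, since both come from cells with intact PKM2 under the same stimulation label. All 8 enzymes were higher in vehicle, each with every vehicle library above every WT library, and all 8 passed limma's test, where 38.6% of all genes tested were called higher. With a log2 difference of at least 1 as well, 7 of the 8 were called, against 13.1% of all genes, and the exception was Psph. Mthfd2 was at 5.67 ± 0.185 RPKM in WT and 57.5 ± 3.56 in vehicle (SD, n = 3 each), a ratio of 10.2 and a log2 difference of 3.13 ± 0.06 (SE, limma adjusted p = 9.24e-10). Shmt1 was at 2.58 ± 0.178 and 28.7 ± 4.68 RPKM, a ratio of 11.2 (limma adjusted p = 1.18e-07). The rest were higher by ratios of 1.63 for Psph, 3.31 for Mthfd1l, 3.97 for Phgdh, 4.28 for Psat1, 4.68 for Shmt2 and 5.21 for Mthfd1. Between the compartments, the Shmt2 to Shmt1 ratio of RPKM was 7.89 ± 0.971 in WT and 3.33 ± 0.311 in vehicle, whereas Mthfd2 to Mthfd1 was 0.543 ± 0.0405 and 1.06 ± 0.0999 (SD, n = 3 each). Mthfd1l to Mthfd1 was 1.41 ± 0.153 in WT and 0.899 ± 0.0872 in vehicle (SD, n = 3 each). The groups were apart for each of these ratios, with Mthfd2 to Mthfd1 higher in vehicle and the others lower. The median log2 difference was 2.11 over the 8 enzymes and 0.00 over all genes. The vehicle and WT groups belong to different experiments and differ in the Cre, in the solvent, in the sex of the cells and in the Ifng and Il2ra levels above, and these cannot be told apart. The vehicle and WT libraries also enter the other comparisons, so this difference is not independent of them.

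The order of the levels differed between the experiments. Phgdh was the most abundant in all 4 groups, with all its libraries above those of Shmt2, the next in mean level. Shmt2 and Psat1 followed, and their libraries overlapped in WT, vehicle and TEPP-46 and were apart in KO. Mthfd2 was 7th of 8 in WT and KO, and 4th in vehicle and TEPP-46, where it overlapped with Mthfd1. Psph went from 5th in WT and KO to 8th in the drug experiment, and Shmt1 from 8th to 7th. Psph and Mthfd1 overlapped in WT, and Mthfd1 and Mthfd1l overlapped in vehicle and TEPP-46. All other neighbours in the order were apart in their group.

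Likeness of profile was measured as the root mean square difference of centred log2(RPKM + 1) over the 11 libraries of both experiments. It therefore follows mainly the gap between the experiments, and likeness within a group was not tested. The log2 difference of vehicle from WT was 1.97 for Phgdh, 2.05 for Psat1 and 0.66 for Psph. It was 3.04 for Shmt1 and 3.13 for Mthfd2. The most alike of the 8 were the first enzymes of serine synthesis, Phgdh and Psat1, at 0.121. Psph, the last enzyme of that route, was far from both, at 0.691 from Phgdh and 0.751 from Psat1, and the pair farthest apart was Psph and Shmt1, at 1.23. Shmt1 was closer to Mthfd2, at 0.190, than to Shmt2, at 0.524. Among all genes tested, the nearest to each enzyme were Nt5dc2 and Coq7 for Phgdh, Nup107 and Slc25a5 for Psat1, Apex2 and Slfn3 for Psph, and Nek6 and Ppa1 for Shmt1. They were Grwd1 and Tomm40 for Shmt2, Orc1 and Gemin6 for Mthfd1, Nudc and Snrpa1 for Mthfd1l, and Timm8a1 and Nme1 for Mthfd2. The closest of all was Apex2 to Psph, at 0.0473, and the least close of the named genes was Ppa1 to Shmt1, at 0.140.

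Genes that make or use the products of these enzymes were then described as lists, none of which had a member past limma's threshold for TEPP-46 or for KO. Of all genes tested, 56.6% were below 0 with TEPP-46 and 49.7% in KO, beside which the counts of the lists are to be read. De novo purine synthesis, which takes up formyl groups at the steps of Gart and Atic, had 6 of 6 genes below 0 with TEPP-46, with a median of -0.23, and 5 of 6 below 0 in KO, with a median of -0.13. Atic had the lowest value of the list with TEPP-46, at 33.0 ± 5.31 RPKM in vehicle and 24.95 ± 4.48 in treated cells (SD, n = 3 each), yet its groups overlapped, as those of all 6 did. In the methionine cycle and transsulfuration list 7 of 8 genes were below 0 with TEPP-46, with a median of -0.17, and 5 of 8 in KO, with a median of -0.06. Ahcy, which hydrolyses adenosylhomocysteine, was at 133 ± 11.7 RPKM in vehicle and 108 ± 9.52 with TEPP-46 (SD, n = 3 each, limma adjusted p = 0.425), and was the one gene of that list with groups apart with TEPP-46. In KO the groups were apart and lower for 3 of 8 genes of that list and 4 of 6 of purine synthesis, where 14.5% of all genes were. They were apart and higher for 1 of 8 and 0 of 6, where 10.2% of all genes were. The other genes of the folate cycle and its transport had 8 of 11 below 0 with TEPP-46 and 4 of 11 in KO, with medians of -0.03 and 0.01. Within that list 4 of 11 genes were lower in both KO libraries than in every WT library, where 14.5% of all genes were. Another 1 of 11 was apart and higher, where 10.2% of all genes were. Tyms, the thymidylate synthase, was among the lower genes, at 25.7 ± 8.30 RPKM in WT and 15.5 ± 1.42 in KO (SD, n = 3 and 2, limma adjusted p = 0.627). With TEPP-46 Tyms was at 105 ± 4.44 RPKM against 103 ± 3.55 in vehicle.

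Glycine cleavage and glycine or serine use had 5 of 8 genes below 0 in each comparison, with medians of -0.01 for TEPP-46 and -0.02 for KO. Serine and glycine transport had 4 of 7 below 0 with TEPP-46 and 3 of 7 in KO, with medians of -0.04 and 0.01, so that neither list lay away from the middle of all genes. Among ATF4, a transcription factor of amino acid stress, and its targets outside the 8 enzymes, 7 of 12 were below 0 with TEPP-46 and the median was -0.04. Within that list 5 of 12 had groups apart and lower with TEPP-46, namely Asns, Nars, Slc7a5, Gars and Aars, where 7.71% of all genes did, and Ddit3 was apart and higher, as were 7.61% of all genes. Asns, the asparagine synthetase, was at 27.7 ± 0.900 RPKM in vehicle and 20.3 ± 0.730 with TEPP-46, a difference of -0.43 (SD, n = 3 each, limma adjusted p = 0.239). Nars, the asparaginyl-tRNA synthetase, was at 93.9 ± 4.37 and 78.1 ± 2.31 RPKM, and Slc7a5, a transporter of large neutral amino acids, at 56.4 ± 2.71 and 45.9 ± 3.35 (SD, n = 3 each). Atf4 itself was at 185 ± 6.04 and 175 ± 4.53 RPKM. In KO no gene of that list had groups apart and lower and 2 of 12 had them apart and higher, Atf4 at 77.0 ± 3.30 RPKM against 71.9 ± 2.67 in WT and Ddit3 at 30.2 ± 0.467 against 27.2 ± 3.06 (SD, n = 2 and 3), where 10.2% of all genes did; the median was -0.04. The proliferation genes had 9 of 10 below 0 with TEPP-46, with a median of -0.10, and 1 of them, Mki67, had groups apart.

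**Figure D4:**
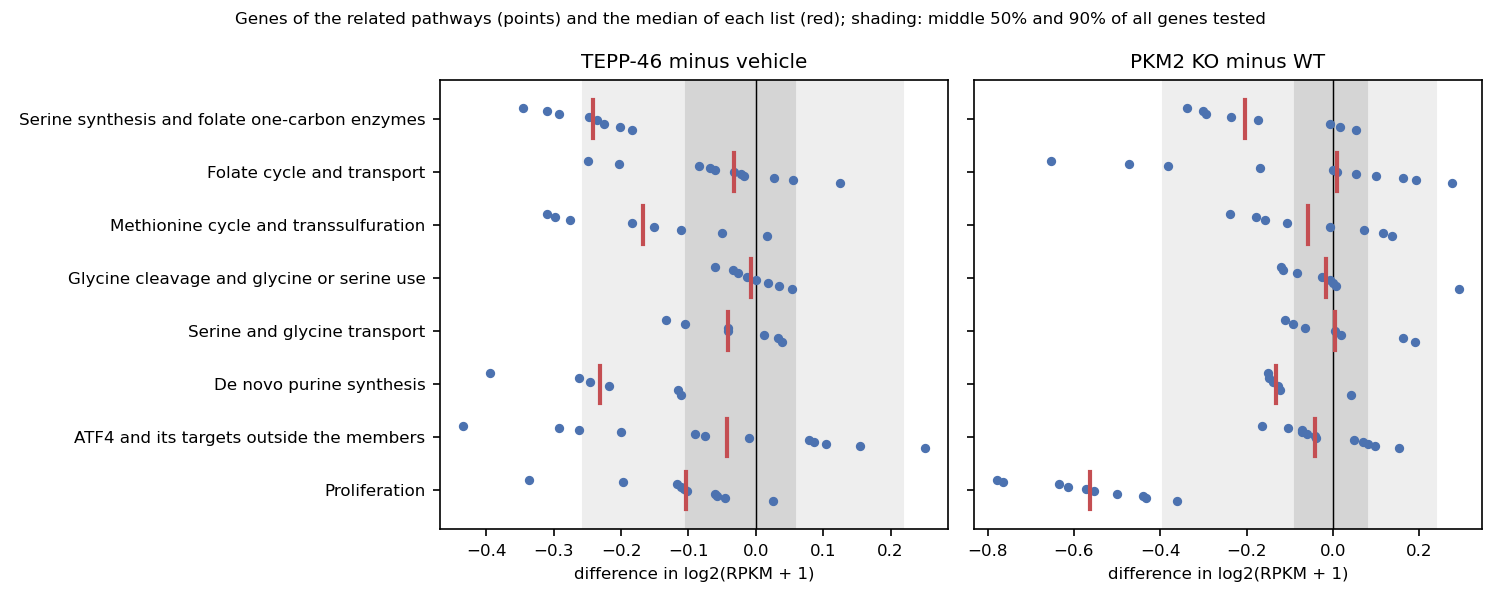
Differences in log2(RPKM + 1) (horizontal axes) for each tested gene of the 8 enzymes and of 7 related lists (points), with the list medians in red and the middle 50% and 90% of all genes tested shaded. With TEPP-46 the medians of the 8 enzymes and of purine synthesis lie lowest, at -0.24 and -0.23, and in KO the proliferation median lies lowest, at -0.56.

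Between vehicle and WT, 38.6% of all genes tested were called higher in vehicle and 36.7% lower, beside which the counts of the lists are to be read. In de novo purine synthesis 6 of 6 were higher and none lower in vehicle, from 0.74 for Paics to 2.35 for Atic on the log2 scale. The proliferation list had 10 of 10 higher, with a median of 2.09, beside the 2.11 of the 8 enzymes. In the folate list 6 of 11 were higher, among them the folate carrier Slc19a1 at 2.26, Tyms at 2.00 and Fpgs, which adds glutamates to folate, at 1.71. Another 3 of those 11 were lower, Ggh, which removes those glutamates, at -0.79, Mthfs at -0.87 and Mthfsl at -0.72. Mthfd2l, the paralogue of Mthfd2, was at 2.17 ± 0.615 RPKM in WT and 2.05 ± 0.227 in vehicle (SD, n = 3 each), where Mthfd2 differed by a ratio of 10.2. In the methionine list 6 of 8 were higher, led by Ahcy at 2.21, and Mat2b was lower at -0.53. Of the serine and glycine carriers 6 of 7 were higher, led by the mitochondrial serine carrier Sfxn1 at 1.57, and its relative Sfxn3 was lower at -1.19. The glycine list had 7 of 8 higher, led by the glycine cleavage protein Gcsh at 1.88, with the serine racemase Srr lower at -0.51. In the ATF4 list 9 of 12 were higher, with Slc7a5 at 3.56 and Asns at 2.76, and Ddit3 was lower at -1.04.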

How the data were processed

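RNA of cultured splenic NK cells was aligned with STAR to mm10, per the submitters' processing notes; the sources used here do not state counting, annotation or versions. The labels name a poly(A)-selected stranded kit and the title total RNA, and the small nuclear and signal recognition RNAs Rn7s1, Rn7s2 and Rn7sk held 32.4% to 56.2% of the summed RPKM of a library. The authors deposited RPKM, so read depth is unknown and no counting interval is given; the median gene tested was at 13.2 to 14.4 RPKM in every library. The authors also deposited ratio (fold) values for genes they listed, quoted only as theirs. Of the library columns, 11 matched a sample by name, and 5 matched none and were not used.

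The 11142 genes at a mean of 1 RPKM or more were tested as log2(RPKM + 1) with limma 3.58.1 in R 4.3.3, variance trend and Benjamini-Hochberg adjustment over all of them, at an adjusted p of 0.05. This scale understates the change of low genes. The genotype and drug fits used the libraries of their 2 groups, and the other fits all 11. The replicates' source animals are not given, so a p-value reflects only how these libraries vary, which may be technical. The script was tested on simulated data. The plots used matplotlib 3.10.9 and Python 3.11.15. IDs were matched to GENCODE M21; sequences are RefSeq's, and coordinates are 1-based.

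The enzymes and lists were chosen with earlier results of these data known. Named are the 8 enzymes; of each list the genes past the threshold, up to 8 by p, otherwise the 4 with the smallest p; and the 2 genes nearest in profile to each enzyme. Genes named as counted apart, such as Aars and Ddit3, those of the authors' table, or as markers or paralogues, such as Mthfd2l, and Tyms and Atf4 with TEPP-46, were chosen after their values were seen. One gene of the folate list is not reported here by name. Alternatives were other pseudocounts, filters and scalings, a replicate block, all libraries for the spread, sex as the libraries show it, protein-coding genes only, and each library left out.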

Additional observations from a re-analysis of the deposited data

How the results depend on the processing

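For TEPP-46, all 8 enzymes stayed below vehicle in each of the alternatives run, and without each library in turn. The count of genes called, 0 in the reported fit, became 1 at a pseudocount of 0.1, 1 when rescaled without Rn7s1, Rn7s2 and Rn7sk, and 3 with protein-coding genes only (chosen after seeing the data), with 0 of the 8 enzymes among them; without 1 library it ran from 0 to 3, reaching 3 when replicate 1 of either drug group was dropped and 1 when vehicle replicate 2, or replicate 3 of either group, was dropped. The labels do not say what a replicate number shares, so pairs were not established. Same-numbered drug libraries deviated from their group means with correlations of 0.0523, 0.284 and 0.275, each best with its own number. Differently numbered drug libraries correlated from -0.281 to 0.00129. Deviations within a group sum to 0, which by itself pulls these values down where the same-numbered ones are above 0. Same-numbered genotype libraries correlated at 0.0702 and -0.0967. The deviations of the 2 KO libraries from their mean mirror each other exactly, so these values cannot settle whether the numbers pair. With the replicate block 3 genes were called for TEPP-46 and 0 of the 8 enzymes, though 8 of the 8 and 2597 of 11142 genes had an unadjusted p under 0.05, and 3 genes when rescaled as well. With the replicate block and protein-coding genes only, an alternative chosen after seeing the data, 889 of 9680 genes were called and 7 of the 8 enzymes, with adjusted p from 0.0154 to 0.0492 and 0.0683 for Mthfd1l; the block with quantile normalization called 0. For KO, the 11 genes became 7 at a pseudocount of 5, 0 with the replicate block, 25 with the spread of all libraries, 6 with sex as a covariate and 5 (without WT replicate 2) to 21 (without KO replicate 2) when 1 library was left out; none of the 8 enzymes was called in any of these. The 6 genes of the difference of effects became 10 at a pseudocount of 0.1, 15 with the replicate block and 3 (without WT replicate 2 or vehicle replicate 1) to 12 (without KO replicate 2) when 1 library was left out. The causes of these moves were not tested.

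Only values near 0 turned in sign. In KO, Psph became 0.00399 with quantile normalization, 0.0223 when rescaled and 0.0200 with the replicate block, and ran from -0.0736 to 0.0596 without 1 library. Shmt2 became -0.0318 with the block and ran from -0.0544 to 0.0875, and Mthfd2 ran from -0.00108 to 0.107. In the difference of effects Shmt1 became 0.0857 at a pseudocount of 0.1 and 0.0405 with quantile normalization, and Mthfd1l 0.0355 with the block. Without 1 library Phgdh ran from -0.148 to 0.0958, Psat1 from -0.0279 to 0.137, Shmt1 from -0.147 to 0.160, Mthfd1 from -0.0303 to 0.252 and Mthfd1l from -0.0884 to 0.0973. The TEPP-46 log2 ratio differences ran from -0.0804 to 0.0350 for Shmt2 to Shmt1, -0.118 to 0.0937 for Mthfd2 to Mthfd1 and -0.0235 to 0.114 for Mthfd1l to Mthfd1. All 8 enzymes passed the threshold between vehicle and WT in each alternative run. Depth is not known, so the smallest change that could be seen is set by the spread of 2 or 3 libraries.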
